A study of Mus musculus with 31 samples.

Results

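Leukocytes of irradiated mammary tumours were compared with those of mock-treated tumours at day 5, over both dose schedules together. All 20 day 5 libraries of the 31 in the series entered, 12 from irradiated and 8 from mock-treated tumours, and the schedule (3 fractions or 1) was a covariate, so that each gene had 1 change common to both regimens. The tumours were AT3-OVA, a triple negative mouse mammary carcinoma line that carries ovalbumin, grown in the mammary fat pad of wild-type female C57BL/6 mice. The 4 groups were 3x4Gy (3 fractions of 4 Gy at intervals of 24 h, 6 libraries), its mock 3x0Gy (4 libraries), 1x20Gy (1 fraction of 20 Gy, 6 libraries) and its mock 1x0Gy (4 libraries), all taken 5 days after the last fraction. Mocks were anaesthetised but not irradiated, the beam (6 MeV electrons) was collimated to the tumour by a lead shield, and mouse age is not given in the sources used here. Cells were sorted on CD45.2, the pan-leukocyte marker, and their RNA was sequenced in bulk. The labels do not say how many mice stand behind a library, so p-values measure the spread between libraries of a group, which may be in part technical.

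Ionising radiation breaks DNA, and in most cells the breaks stabilise the transcription factor p53, which induces cell cycle inhibitors such as Cdkn1a and death genes such as Bax. Leukocytes differ widely in how readily they die of such damage, lymphocytes being sensitive and macrophages and regulatory T cells more resistant, and new monocytes enter an irradiated tumour from the blood. A bulk profile of sorted leukocytes therefore holds both changes within cells and changes in the mixture of cells. Fewer cells of a type and less RNA per cell cannot be told apart in it.

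Gene counts per library ran from 2652298 to 7541144, with medians of 5011000 in the irradiated and 5733000 in the mock libraries. Ptprc, the gene of CD45, was present in each library (378.5 to 1946 CPM, counts scaled to a common library total), and its mean level ranked 110 among all genes. Markers of cells the sort should have removed were present as well and moved with irradiation. The median log2 CPM of the fibroblast and matrix list was 2.07 ± 0.72 (SD, n = 12) in irradiated and 3.79 ± 0.86 (n = 8) in mock libraries, a difference of -1.72 (exact permutation test within schedules, two-sided, p = 0.00032, adjusted over 7 library measures 0.00074). Erythroid genes (2 tested, both of haemoglobin) differed by -1.79 and the adipose and mammary gland list by -2.59. For each the exact permutation p was 2.268e-05, the smallest the 44100 arrangements can give (adjusted 7.9e-05). Of the 9 genes of the adipose and mammary gland list only 3 were tested, the milk protein genes Csn2, Csn3 and Lalba, so no adipose gene was measured. Csn2 (0 to 2 counts after irradiation, 5 to 68 in mocks) and Lalba (0 to 4 and 2 to 15) passed the count filter only through mock libraries. The difference and p of this list rest on genes kept because mocks held them, so they are a description and no test. Epithelial and tumour cell markers differed by -0.83 (exact permutation p = 0.037, adjusted 0.052) and endothelial markers by 0.37 (exact p = 0.11, adjusted 0.13). Reads placed outside annotated genes took 23.8 ± 3.6% (n = 12) against 16.5 ± 4.9% (n = 8; exact permutation p = 0.00045, adjusted 0.00079), and 1 library stood apart with 5.66% (3x0Gy library 2). Total gene counts differed by -344300 on average (exact permutation p = 0.48). The clone-named symbol RP23-81C12.3, whose product is not known here, held 2.06 to 14.04% of the gene counts after irradiation and 0.148 to 5.19% in mocks.

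**Figure D1:**
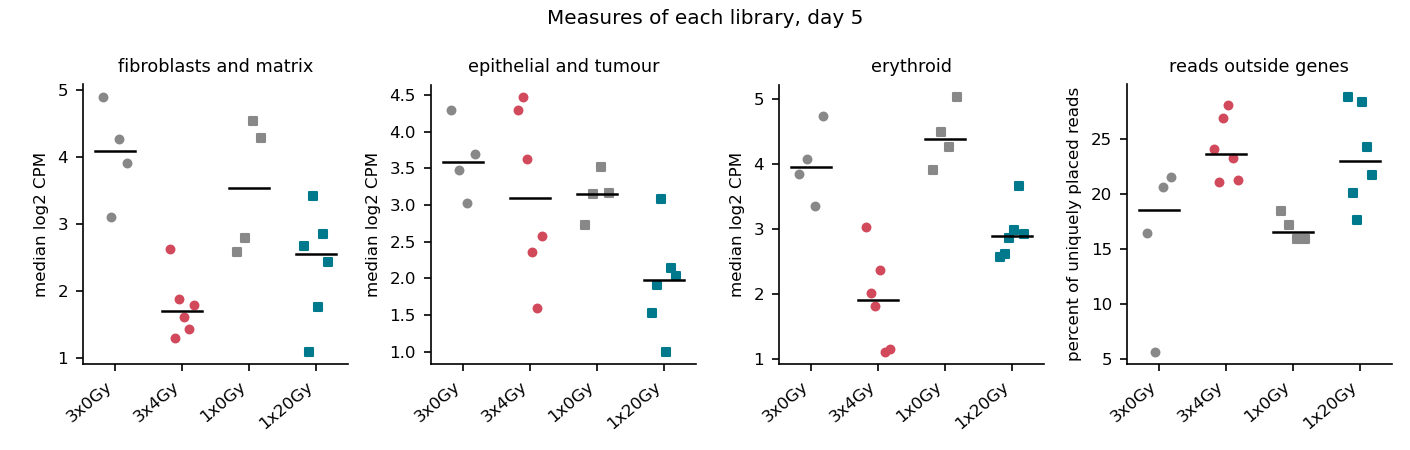
Median log2 CPM of the fibroblast, epithelial and erythroid lists and the share of uniquely placed reads outside genes (y axes), by group (x axis), with 1 point per library and the group median as a line. The group medians of the fibroblast and erythroid lists are lower, and those of reads outside genes higher, after both regimens than in their mocks, and 1 point of 3x0Gy sits at 5.66%.

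The response common to both regimens held about as many losses as gains, and the losses were deeper. Over both schedules 1316 genes were higher and 1431 lower in irradiated tumours, 2747 of 12021 tested (22.9%; 10.9% higher and 11.9% lower) at an adjusted p below 0.05 in edgeR's quasi-likelihood test, which is what "called" means below. The lower genes had a median log2 fold change of -0.87 (quartiles -1.67 and -0.53) and the higher genes of 0.57 (0.40 and 0.84). At least 2-fold changes were seen in 650 of the lower (45.4%) and 228 of the higher genes (17.3%), and at least 4-fold changes in 264 and 27. The genes that fell were also scarcer, with a median of 8.74 CPM against 42.1 CPM for those that rose and 21.2 CPM for all genes tested. In 281 genes (2.34% of those tested; 100 higher and 181 lower) the 12 irradiated and the 8 mock libraries did not overlap in log2 CPM, and all 281 were called. The split of higher and lower calls moved with the scaling of the libraries, to 881 and 1872 with upper quartile scaling and 655 and 2113 with library size alone, which shifted the median of all genes from 0.01 to -0.10. The RP23-81C12.3 share, which counts toward library size, and the reads outside genes, which do not, were both higher after irradiation. Their part in that shift was not tested.

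The 3x4Gy and 1x20Gy comparisons share no library, so the overlap between them is a measure of their likeness. Of the 1477 genes called after 3x4Gy (12.3% of those tested; 625 higher, 5.2%, and 852 lower, 7.09%) 614 (41.6%) were also called after 1x20Gy, and these were 59.7% of the 1028 genes called there (8.55%; 441 higher, 3.67%, and 587 lower, 4.88%). All 614 had the same direction, 202 higher and 412 lower. Over all genes tested 70.8% had the same sign in both, and the log2 fold changes correlated across genes with a Pearson r of 0.78 and a Spearman rho of 0.61 (12021 genes, which are not independent replicates, and all from the same 20 libraries). The difference between the regimens' responses, tested as an interaction, was called for 0 genes by edgeR, with 714 at an unadjusted p below 0.05 where chance gives 601. DESeq2 called 1 gene, limma voom called 0, and edgeR without a filter on low counts called 1. This test had wider errors, a median standard error (SE) of 0.31 against 0.16 for the common change. On simulated data it recovered 33% of 2-fold and 80% of 4-fold differences, against 81% and 94% for the common change (11805 and 11779 genes). The simulated data held far fewer changed genes than were called here, with 117 calls for the difference and 184 for the common change. The shares recovered need not carry over to these data.

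**Figure D2:**
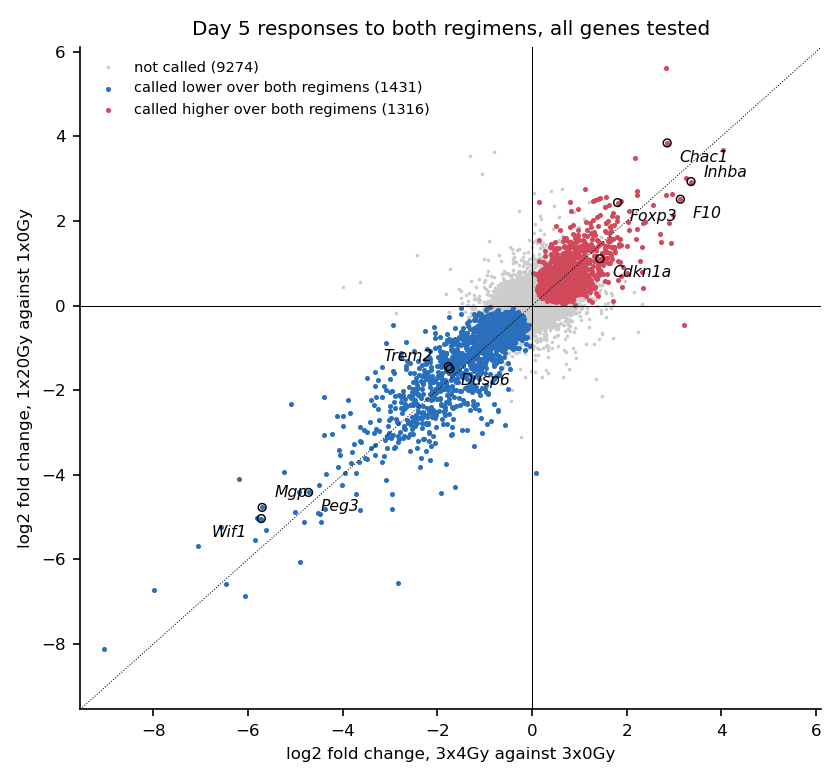
Log2 fold change of each of 12021 genes after 3x4Gy (x axis) and after 1x20Gy (y axis), each against its own mock, with 1316 genes called higher over both regimens in red, 1431 called lower in blue, others in grey and the line of equal change dotted. The called genes lie along the diagonal, and the blue ones reach further from zero than the red.

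By p-value the clearest rise among the named genes was that of Rab11fip1, an effector of Rab11 in the recycling of endosomes. Its 12 irradiated libraries lay between 73.6 and 105 CPM (median 86.8) and its 8 mocks between 27.6 and 44.4 CPM (median 29.6). No irradiated library reached down to a mock, and the log2 fold change was 1.47 (SE 0.09, adjusted p = 2.6e-10). Mxd1, a MAX-binding repressor that opposes MYC, was at 352 to 504 CPM (median 394) against 167 to 234 (median 189), a log2 fold change of 1.04 with SE 0.09 (adjusted p = 2.6e-08). Flrt3, a membrane protein with leucine-rich repeats, rose by 1.55 (SE 0.14) and Agpat4, an acyltransferase of phospholipid synthesis, by 1.10 (SE 0.11). Olr1, a scavenger receptor for oxidised lipoprotein, went from a median of 3.23 CPM (1.37 to 4.43) to 10.3 CPM (7.43 to 22.6), again without overlap (1.91, SE 0.23). None of these 5 genes lost its call when any single library was left out.

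Among p53 targets the cell cycle inhibitor Cdkn1a had the largest rise. Irradiated libraries held 624 to 1030 CPM (median 775) and mocks 194 to 433 CPM (median 342), again apart from each other, and the log2 fold change was 1.27 (SE 0.14, adjusted p = 5.8e-07). Of 22 p53 targets tested 7 rose and 1 fell (against 10.9% and 11.9% of all genes tested). The list's median log2 fold change was 0.32, against 0.01 over all genes tested. With the level of fibroblast and epithelial markers as a covariate (the marker covariate) 4 of the 22 were higher and 0 lower, and with the share of reads outside genes as a covariate 5 and 0. Ddit4, an inhibitor of mTORC1 that other stresses induce too, rose by 1.22 (SE 0.17) and Sesn2, a leucine sensor upstream of mTORC1, by 0.79 (SE 0.17). Bax, the pore-forming death protein, rose by 0.74 (SE 0.17) and Mdm2, the ligase that degrades p53, by 0.59 (SE 0.12). Perp, a desmosomal protein of epithelia, fell by 1.30 on the log2 scale (SE 0.30), and with the marker covariate its value was -0.29 (SE 0.34, adjusted p = 0.64). Several well-known targets were not called, among them Bbc3 (0.29) and Pmaip1 (0.37), which encode death proteins, Fas (0.33) and Gdf15 (0.17). Of 15 genes of the BCL2 family 4 rose, the death genes Bax, Bak1 (0.44) and Bcl2l11 (0.33, SE 0.09) and the survival gene Mcl1 (0.31), and the survival gene Bcl2 fell by 0.65 (SE 0.16), from a median of 54.4 to 41.4 CPM. None of these 4 rises was called with either covariate. The count was 2 higher without 3x4Gy library 5, 3x0Gy library 1, 3 or 4, 1x20Gy library 1 or 5 or 1x0Gy library 3. The rise of Bax was 1.22 after 3x4Gy and 0.31 after 1x20Gy, with an unadjusted p of 0.0039 for the difference that did not hold after adjustment over all genes. Of 24 DNA repair genes 2 rose and 1 fell, no larger shares than the 10.9% and 11.9% of all genes tested. The count was 5 higher without 3x0Gy library 4 and 1 higher without 1x20Gy library 3 or 4 or 1x0Gy library 2 or 3, while the 1 lower call ended without 3x0Gy library 2 or 1x0Gy library 1 or 4.

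**Figure D3:**
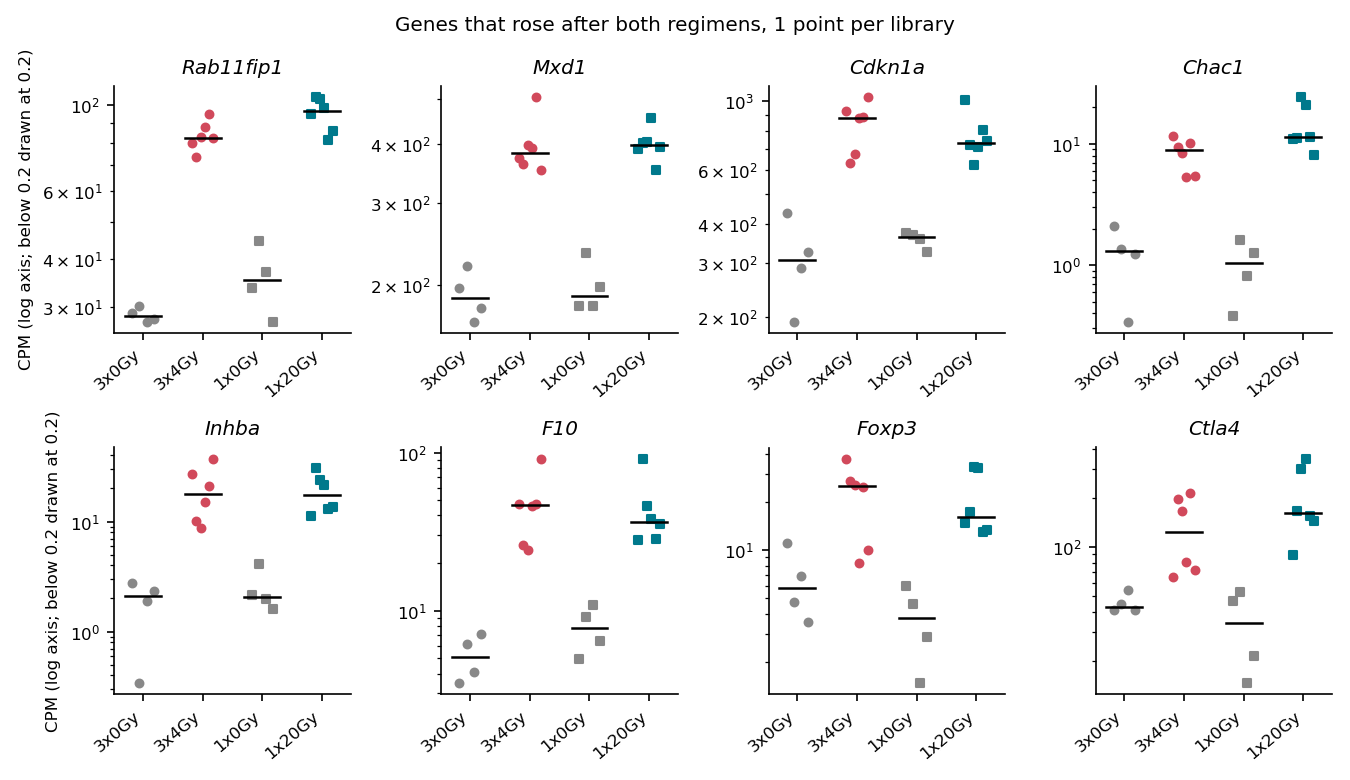
CPM (y axes, log scale) of 8 genes that rose after both regimens, by group (x axis), with 1 point per library and the group median as a line. In Rab11fip1, Mxd1, Cdkn1a, Chac1, Inhba, F10 and Ctla4 every irradiated library lies above every mock library, and in Foxp3 the lowest 3x4Gy library (8.27 CPM) lies below the highest 3x0Gy library (11.2 CPM).

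Chac1 had the largest rise among the genes called in both schedules with at least 5 CPM. It encodes an enzyme that breaks down glutathione and is induced by ATF4, the transcription factor of the integrated stress response, in which phosphorylation of eIF2 slows translation while ATF4 is made. Irradiated libraries lay between 5.32 and 24.2 CPM (median 10.5) and mocks between 0.343 and 2.09 CPM (median 1.25), so even the lowest irradiated library was above the highest mock. The log2 fold change was 3.42 (SE 0.32, adjusted p = 9.5e-08), with 2.86 after 3x4Gy and 3.85 after 1x20Gy. Slc7a11, the cystine transporter that feeds glutathione synthesis and another ATF4 target, rose from a median of 56.8 CPM (30.8 to 80.1) to 135 CPM (88.1 to 316), a log2 fold change of 1.44 with SE 0.21 (adjusted p = 2.8e-05). Its call ended with the fibroblast and epithelial level as a covariate (0.85, SE 0.27, adjusted p = 0.063), while that of Chac1 did not (3.82, SE 0.38).

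Of 16 genes of this response 7 rose and 1 fell, with a median of 0.41. Besides Chac1, Slc7a11 and Sesn2 the rises were in Phgdh (0.79) and Mthfd2 (0.70), enzymes of serine and one-carbon metabolism, in Nupr1 (0.65) and in Atf4 itself (0.41). Other ATF4 targets were not among them. Ddit3, which encodes CHOP, was at a median of 87.2 CPM (71.4 to 131) against 90.0 CPM (67.6 to 132), a log2 fold change of -0.03 (SE 0.13), and Trib3 (-0.15), Asns (0.23) and Atf3 (-0.32) were not called either. Vldlr, a lipoprotein receptor, fell by 1.75 (SE 0.41).

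The amino acid response element, the site that ATF4 binds with a C/EBP partner, was looked for as TGATGNAA on both strands of the 250 bases before each RefSeq start site (GRCm38.p6). At least 1 match was found for 222 of the 8734 tested genes with a promoter in that table (2.54%), for 25 of 947 genes that rose (2.64%) and for 30 of 1017 that fell (2.95%). It was found for 6 of the 16 genes of the integrated stress response (37.5%): Chac1, Slc7a11 and Nupr1, which rose, Asns and Atf3, which were not called, and Vldlr, which fell. The promoters of the pair with the largest rises are shown because both carry it, with matches in capitals. The Chac1 window is chr2:119350992-119351241 on the plus strand, with a match on the opposite strand that begins at base -193 from the start site. The Slc7a11 window is chr3:50443614-50443863 on the minus strand, with a match in each orientation, at -66 and -47.
Chac1: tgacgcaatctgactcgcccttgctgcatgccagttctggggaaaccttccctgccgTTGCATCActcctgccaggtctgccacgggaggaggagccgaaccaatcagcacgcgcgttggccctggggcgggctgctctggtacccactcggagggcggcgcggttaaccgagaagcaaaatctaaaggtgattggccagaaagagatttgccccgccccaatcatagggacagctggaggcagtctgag
Slc7a11: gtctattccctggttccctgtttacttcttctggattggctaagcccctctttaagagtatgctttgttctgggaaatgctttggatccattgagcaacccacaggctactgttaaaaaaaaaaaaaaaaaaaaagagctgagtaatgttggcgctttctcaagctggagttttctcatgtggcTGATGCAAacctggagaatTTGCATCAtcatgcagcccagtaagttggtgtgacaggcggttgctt
A match describes the letters only, and near matches were not counted.

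Inhba, which encodes the subunit of activin A, also separated the groups. It lay between 8.81 and 37.3 CPM (median 18.0) after irradiation and between 0.341 and 4.15 CPM (median 2.07) in mocks, a log2 fold change of 3.12 with SE 0.32 (adjusted p = 3.9e-07) that was 3.36 after 3x4Gy and 2.93 after 1x20Gy. Activins signal through type I and type II receptors to SMAD2 and SMAD3, and follistatin (Fst) binds and blocks them. Of 16 ligands, receptors and regulators of activin and TGF-beta tested 2 rose and 8 fell, with a median of -0.53, and the other rise, in the inhibitor Smad7 (0.48), was lost in most fits that left out 1 library. The other activin subunit, Inhbb, fell by 2.46 (SE 0.33), from a median of 3.92 to 0.589 CPM, and Fst fell from 1.83 to 0.262 CPM (-2.15, SE 0.45). Ltbp1, which holds latent TGF-beta in the matrix, fell by 1.96 (SE 0.32), and Tgfb1 by 0.52, Tgfb3 by 0.78, the co-receptor Tgfbr3 by 1.49 and the follistatin-like Fstl1 by 1.58 on the log2 scale. Several of these are made by stromal cells, and the fibroblast list fell in the same libraries. Whether their falls share a source with that list was not tested. With the fibroblast and epithelial level as a covariate 1 of the 16 was higher and 2 were lower, and Inhba kept a log2 fold change of 2.90 (SE 0.42). Inhba lies on chromosome 13 (16011851 to 16031621, plus strand, GRCm38).

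The genes of coagulation factors X and VII rose together. F10 was at 24.4 to 91.4 CPM (median 41.9) against 3.49 to 10.8 CPM (median 6.29), a log2 fold change of 2.79 with SE 0.29 (adjusted p = 3.9e-07) with no overlap. F7, whose product with tissue factor activates factor X, was at 4.81 to 31.3 CPM (median 8.10) against 1.05 to 5.57 CPM (median 2.59), where the groups overlapped (2.12, SE 0.41, adjusted p = 0.0006). They are neighbours on the plus strand of chromosome 8, F7 from 13026034 to 13035809 and F10 from 13037308 to 13056676, with 1498 bases between them. The strand setting of the counting is not given in the sources used here. With the marker covariate the call of F7 ended (1.25, SE 0.57, adjusted p = 0.18). Of 15 coagulation and fibrinolysis genes 5 rose and 4 fell. Among the others Procr, the endothelial protein C receptor, rose by 1.00 and Thbs1, thrombospondin 1, by 0.85. F3, tissue factor, had a log2 fold change of -1.26 (SE 0.42), a call that ended without 3x0Gy library 2 or 4 or 1x0Gy library 3 or 4 and with either covariate (-0.35 and -0.76, adjusted p = 0.73 and 0.40). Its inhibitor Tfpi fell by 0.76 on the log2 scale. Plau, which encodes urokinase, fell by 1.07 on the log2 scale. The marker covariate left 2 higher and 2 lower in this list, and the share of reads outside genes 4 and 1.

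Regulatory T cell genes rose as a group. These cells hold other T cells in check and are defined by the transcription factor Foxp3. Of 12 markers tested 10 rose and 0 fell (83.3%, against 10.9% of all genes higher), and the list's median log2 fold change was 1.202. Foxp3 itself went from a median of 4.70 CPM (1.47 to 11.2) to 21.1 CPM (8.27 to 37.4), and 2 libraries at the lower end overlapped the mocks (2.12, SE 0.32, adjusted p = 4.8e-05). Ctla4, an inhibitory receptor, went from 42.6 CPM (14.6 to 54.3) to 160 CPM (65.4 to 348) with no overlap (2.05, SE 0.32). Folr4, a folate receptor family member found on these cells but not in the list, rose by 2.02 (SE 0.32). Klrg1, carried by differentiated effector cells, rose by 1.90 (SE 0.31), the costimulatory receptor Tnfrsf4 by 1.63 (SE 0.28) and Lrrc32, which displays latent TGF-beta, by 1.52. Ikzf2 (1.26), Tnfrsf18 (1.14), the interleukin-2 receptor chain Il2ra (1.11), Ikzf4 (1.01) and Il1rl1 (0.90) rose as well, while Tnfrsf9 (0.56) and Nrp1 (-0.03) were not called. With the marker covariate 8 of the 12 were still higher, and with the share of reads outside genes as a covariate 7.

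Other T cell genes had a smaller median change. Of 18 T cell markers 10 rose and 0 fell, with a median of 0.71. They were led by Cd5 (1.38, SE 0.24), a brake on the T cell receptor, and by the costimulatory receptors Icos (1.31, SE 0.31) and Cd28 (1.27, SE 0.28), which regulatory T cells carry too. The receptor chains Cd3e (0.41), Cd3d (0.57) and Cd3g (0.09) and the coreceptor Cd4 (0.25) were not called. The count was 6 without 1x0Gy library 3 or without 1x0Gy library 4, 3 with the marker covariate and 1 with the share of reads outside genes as a covariate. Per library the log2 ratio of Foxp3 to Cd3e had a median of -0.79 after irradiation (-1.42 to 0.12) and -2.01 in mocks (-2.79 to -0.99), a description with no test.

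Cytotoxic lymphocyte genes had 2 of 18 higher and 1 lower (11.1% and 5.56%), against 10.9% and 11.9% of all genes. The rises were in Crtam (0.95), an adhesion receptor of activated lymphocytes, and Runx3 (0.38), and with either covariate 0 of the 18 were called. Cd8a, the coreceptor of killer T cells, was at 46.2 to 162 CPM (median 87.8) against 35.3 to 188 CPM (median 121; -0.17, SE 0.29, adjusted p = 0.71). Gzmb, granzyme B, was at a median of 47.4 against 54.7 CPM (0.10, SE 0.25) and Ifng at 11.8 against 13.99 CPM (0.23, SE 0.30), and the groups overlapped in all 3. NK cell markers had 2 of 12 higher, the activating receptor Klrk1 (0.68, SE 0.15) and Nfil3 (0.73, SE 0.11), while the defining receptor Ncr1 was at -0.01. T cell exhaustion genes had 2 of 10 higher, Rgs16 (0.99) and Nr4a3 (0.42), and 1 lower, with a median of 0.17. The lower one, the inhibitory receptor Lag3, fell from a median of 5.04 to 1.35 CPM (-1.55, SE 0.32). Its call ended with either covariate (adjusted p = 0.061 and 0.056). The marker covariate left 0 of these 10 genes called, and the reads outside genes 2 higher and 0 lower. The 1 lower cytotoxic gene, the chemokine Xcl1 (-0.86, SE 0.28), lost its call without 3x0Gy library 2 or 3 or 1x0Gy library 1.

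**Figure D4:**
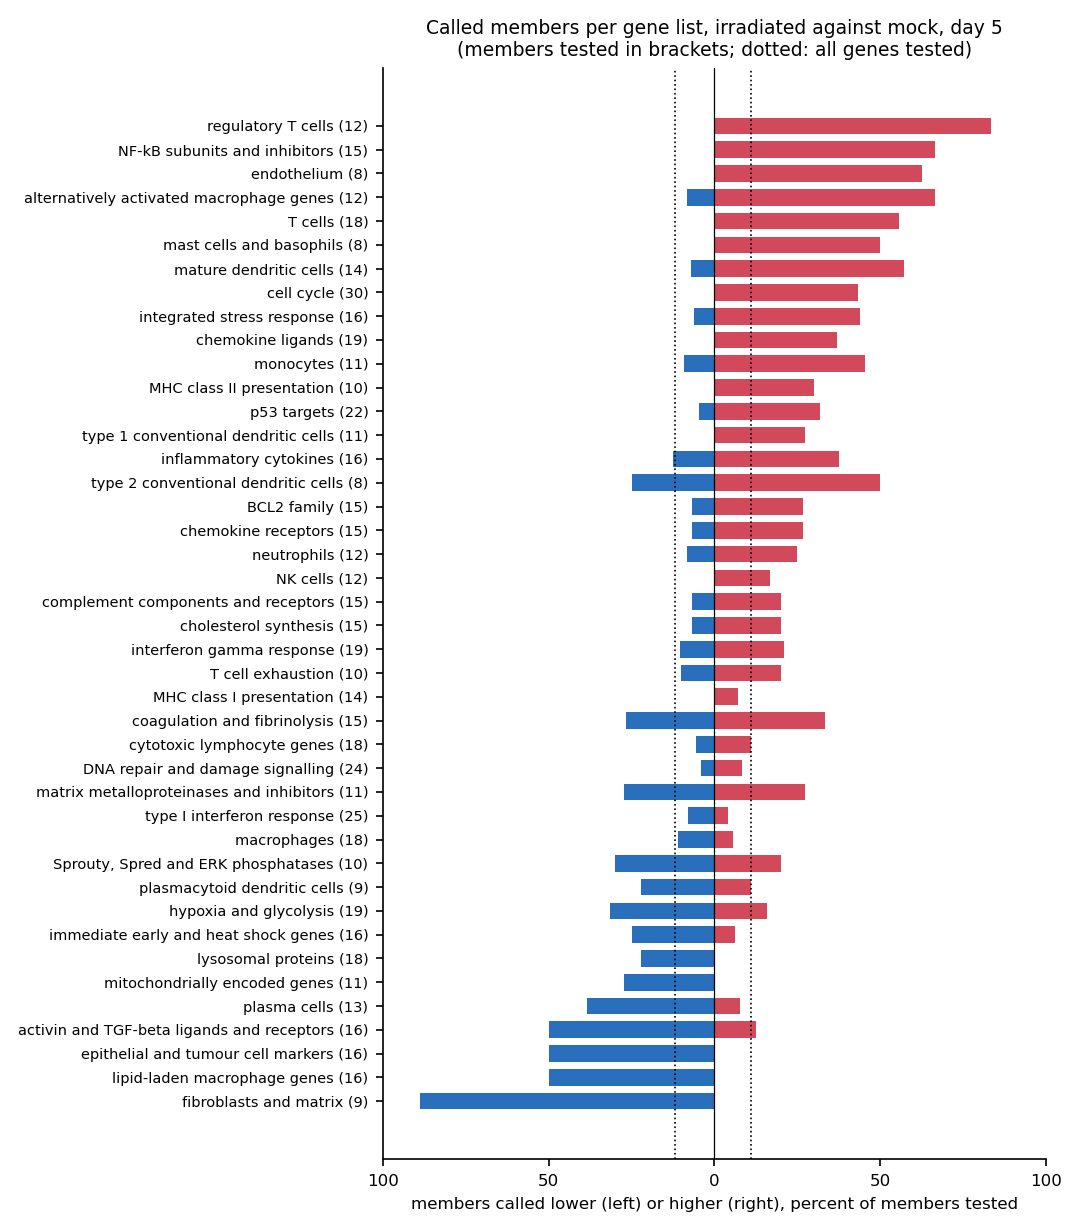
Share of the members tested that were called higher (right, red) or lower (left, blue) in irradiated libraries (x axis, percent), for each gene list with at least 8 members tested (y axis, number tested in brackets), with the shares over all genes tested dotted. Regulatory T cell genes lead on the right with 10 of 12 and fibroblast genes on the left with 8 of 9.

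Genes of NF-kB, the factor that drives much of inflammatory transcription, rose by modest amounts. All 15 subunits, inhibitors and feedback genes tested had a log2 fold change above 0, and 10 were called higher (66.7%) and 0 lower, with a median of 0.50. The subunits Rel (1.05, SE 0.29), Nfkb2 (0.68, SE 0.12), Relb (0.65, SE 0.10) and Nfkb1 (0.51) rose, and Rela (0.14) was not called. Nfkb2 lay at 49.3 to 88.2 CPM (median 61.8) against 29.98 to 52.6 CPM (median 39.4), and the groups overlapped slightly. Traf1 (0.99, SE 0.15) and the inhibitors Nfkbie (0.63) and Nfkbia (0.52), which are themselves induced by the factor, rose too. With the marker covariate 4 of the 15 were higher, and with the share of reads outside genes 8. Rel lost its call with either covariate (adjusted p = 0.16 and 0.57), while Nfkb2, Relb and Traf1 kept theirs.

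Searched on both strands with the consensus NF-kB site, the 250 bases before the start site held a match for 492 of 8734 genes tested (5.63%), 87 of 947 that rose (9.19%), 51 of 1017 that fell (5.01%) and 7 of 12 genes of this list (58.3%). The Nfkbia promoter (chr12:55492648-55492897, minus strand) and the promoter of the most upstream Nfkb2 start (chr19:46304487-46304736, plus strand) are shown as the pair in which an inhibitor and a subunit of the same factor carry it, with matches in capitals. Matches begin at -29 in Nfkbia, and at -39, -38 and -11 in Nfkb2, where the first pair overlap.
Nfkbia: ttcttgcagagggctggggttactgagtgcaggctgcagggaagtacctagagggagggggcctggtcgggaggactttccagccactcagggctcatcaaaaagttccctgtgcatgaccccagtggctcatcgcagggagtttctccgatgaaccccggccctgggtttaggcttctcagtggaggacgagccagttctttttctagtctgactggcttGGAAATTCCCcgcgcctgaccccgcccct
Nfkb2: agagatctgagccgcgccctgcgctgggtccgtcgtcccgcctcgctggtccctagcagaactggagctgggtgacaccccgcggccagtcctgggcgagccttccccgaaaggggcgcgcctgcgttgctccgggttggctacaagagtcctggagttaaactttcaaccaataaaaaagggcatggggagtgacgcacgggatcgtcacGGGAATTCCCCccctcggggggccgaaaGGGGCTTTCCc
Across the other motifs searched the genes that rose stood close to all genes tested: 41.2% against 40.5% for CCAAT, 13.8% against 12.7% for the CHR element TTTGAA, 2.75% against 3.15% for the cyclic AMP response element TGACGTCA, 2.43% against 2.06% for the E2F site TTTCCCGC, 4.44% against 3.56% for the interferon-stimulated response element, 1.48% against 1.39% for the CArG box and 6.55% against 7.05% for a p53 decamer.

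Of 16 inflammatory cytokine genes 6 rose and 2 fell. Il23a, the specific chain of interleukin 23, went from a median of 0.769 CPM (0.164 to 1.08) to 3.48 CPM (2.26 to 7.97), with no overlap (2.40, SE 0.29, adjusted p = 3.4e-06). Ptgs2, cyclooxygenase 2, went from 19.8 CPM (7.15 to 35.0) to 61.0 CPM (36.4 to 85.1), also apart (1.55, SE 0.22). Il1rn (1.03), the interleukin 1 receptor antagonist, Il6 (0.93), Il10 (0.62) and Tnf (0.55) rose, and Il1b (0.05) was not called. Il33, an alarmin held in the nuclei of stromal and epithelial cells, fell from a median of 3.26 to 0.468 CPM (-3.02, SE 0.45), and the other fall, in Lif (-1.05), was lost without 3x0Gy library 4 or 1x0Gy library 4. The marker covariate left 2 cytokine genes higher and 0 lower, and the share of reads outside genes 5 and 1. Of 19 chemokine ligands 7 rose and 0 fell. They include the neutrophil attractants Cxcl3 (2.96, SE 0.65, from a median of 0.168 to 1.85 CPM), Cxcl1 (1.31, SE 0.27) and Cxcl2 (1.14), and the CCR4 ligands Ccl17 (1.19, SE 0.33) and Ccl22 (0.60). With the marker covariate 0 of the 19 were called, and with the share of reads outside genes 7. The interferon-induced Cxcl10 stayed uncalled, at a median of 202 against 188 CPM (-0.23, SE 0.17), and so did the monocyte attractant Ccl2 (-0.56).

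Of 11 monocyte genes 5 rose and 1 fell, and 2 were higher and 0 lower with either covariate. Ccr2, the receptor that draws monocytes out of the marrow, went from a median of 90.8 CPM (29.6 to 117) to 162 CPM (112 to 243), with a slight overlap (1.00, SE 0.17), and Plac8 (1.05, SE 0.28), Treml4 (1.00, SE 0.17) and Ly6c2 (0.72, SE 0.21) rose beside it. Ccr2 and Treml4 kept their calls with either covariate, and Plac8 (adjusted p = 0.26 with the marker covariate and 0.087 with the reads outside genes) and Ly6c2 (0.26 and 0.20) lost theirs. Cx3cr1, higher on patrolling monocytes and resident macrophages, fell by 0.61 (SE 0.18). Of 18 general macrophage genes 1 rose and 2 fell, near the shares over all genes tested (10.9% and 11.9%). The lower count was 7 without 1x20Gy library 1 and 1 without 1x0Gy library 3, while Csf1r (-0.19), Cd68 (-0.25) and Lyz2 (-0.10) were not called.

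Lipid-laden macrophages take up dead cells and lipoproteins and are marked by the lipid receptor Trem2. Of 16 of their genes 8 fell and 0 rose, with a median of -0.44, and 5 fell without 1x0Gy library 3. Of the 16, 3 were lower with the marker covariate and with the share of reads outside genes 2. Trem2 went from a median of 67.6 CPM (33.2 to 156) to 25.1 CPM (9.78 to 47.8), and the groups overlapped between 33.2 and 47.8 CPM (-1.61, SE 0.27, adjusted p = 0.00016). Gpnmb, a membrane glycoprotein of the same cells, fell by 1.13 (SE 0.29), the lysosomal protease Ctsd by 1.14 (SE 0.17), the tetraspanin Cd63 by 0.78 (SE 0.21) and Spp1, osteopontin, by 0.64. Of 18 lysosomal proteins 4 fell, and 2 fell without 1x0Gy library 3 or 4 or with the marker covariate, and 1 with the reads outside genes. Trem2 had a log2 fold change of -2.12 (SE 0.45) with the marker covariate and of -1.29 (SE 0.39) with the share of reads outside genes.

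Of 12 genes of alternatively activated macrophages 8 rose and 1 fell, with 3 higher and 0 lower under the marker covariate and 7 and 0 under the share of reads outside genes. Mgl2, a lectin receptor also of dermal dendritic cells, rose by 1.36 (SE 0.23) and the checkpoint ligand Pdcd1lg2 by 1.11, whereas Retnla fell by 2.02 (SE 0.52). Arg1, arginase 1, was not called: irradiated libraries ran from 1.09 to 66.1 CPM (median 5.40) against 4.47 to 10.8 CPM (median 6.01), and its log2 fold change of 1.27 (SE 0.63) became 0.33 without 1x20Gy library 2. Mature dendritic cells, which carry antigen to lymph nodes, had 8 of 14 genes higher and 1 lower. Ccr7, the receptor that guides them there, rose by 0.76 (SE 0.19), Il4i1 by 1.13 (SE 0.20) and the costimulatory Cd40 by 0.70, while Cd80 (0.41), Cd83 (0.17) and Cd86 (0.22) were not called. With the marker covariate 3 were higher and 1 lower, and with the reads outside genes 8 and 0. The mature dendritic list shares Tnfrsf4 (1.63), its largest rise, with the regulatory T cell list. It shares Ccl17, Ccl22 and Socs2 with the list of alternatively activated macrophages. Type 1 conventional dendritic cells had 3 of 11 genes higher and 0 lower, and 2 higher with either covariate. Among them Naaa (1.12, SE 0.14) and Wdfy4 (0.89, SE 0.18), needed for cross-presentation, rose, and the defining Xcr1 (0.27) and Clec9a (0.31) were not called. Type 2 conventional dendritic cells had 4 of 8 genes higher and 2 lower, with 1 and 0 under the marker covariate and 2 and 1 under the reads outside genes. The 2 lower were Cd7 (-0.82) and Epcam (-1.71), which is also in the epithelial list. Mgl2, among the higher, is also in the list of alternatively activated macrophages. Plasmacytoid dendritic cells, the main source of type I interferon, had 1 of 9 higher and 2 lower, against 10.9% and 11.9% of all genes tested.

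Hdc, the histamine-forming enzyme of mast cells, basophils and neutrophils, went from a median of 15.04 CPM (8.24 to 23.2) to 57.1 CPM (27.8 to 113), with no overlap (1.91, SE 0.23, adjusted p = 3.1e-06). Of 8 mast cell and basophil genes 4 rose and 0 fell, among them the proteases Mcpt8 of basophils (2.15, SE 0.41) and Mcpt4 of mast cells (1.84, SE 0.38). Under the marker covariate 1 of the 8 was higher, and Mcpt8 (1.22, adjusted p = 0.15) and Mcpt4 (1.10, adjusted p = 0.17) lost their calls. With the share of reads outside genes 3 were higher, both of these among them. The chymase Cma1 (1.19, SE 0.42) lost its call in 14 of the 20 fits that left out 1 library, and with either covariate. Neutrophil genes had 3 of 12 higher and 1 lower, and 5 higher without 3x4Gy library 1, with 3 and 0 under the marker covariate and 2 and 1 under the reads outside genes. Cxcr2, their receptor for CXCL1 and its kin, went from a low median of 0.425 to 2.34 CPM (2.02, SE 0.52). Its call ended with the marker covariate (0.63, SE 0.73, adjusted p = 0.64) and with the reads outside genes (adjusted p = 0.068), so the genes counted under the covariates are not all the same. S100a8 (1.38) and S100a9 (1.65) were not called, and Ly6g had no count in any day 5 library. Lcn2, lipocalin 2, which epithelia make as well, fell by 2.25 (SE 0.34). Of 13 plasma cell genes 1 rose and 5 fell, with Igj, the joining chain, at -1.36 (SE 0.34) and Ighg2b at -1.99 (SE 0.44). The marker covariate left 0 plasma cell genes called, and the reads outside genes 1 higher and 2 lower.

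Of 30 cell cycle genes tested 13 rose (43.3%) and 0 fell, with a median of 0.36, and 29 had a log2 fold change above 0. Mki67, the proliferation marker, was at 144 to 360 CPM (median 170) against 80.4 to 154 CPM (median 111; 0.78, SE 0.16, adjusted p = 0.0011), with a small overlap. The mitotic genes Birc5 (0.64, SE 0.13), Plk1 (0.63, SE 0.16), Cenpe (0.62, SE 0.13) and Top2a (0.53) rose, and of the replicative helicase only Mcm5 (0.48) was called among its 6 subunits, Mcm2 (0.12) being the lowest. These rises stood beside that of Cdkn1a in the same mixture of cells. The count was 8 with library size alone, 8 with the marker covariate and 11 with the reads outside genes.

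Of 25 type I interferon genes tested 1 was higher and 2 lower (4% and 8%, against 10.9% and 11.9% of all genes), with a median of 0.02. With upper quartile scaling or library size alone 0 were higher and 5 lower, with a median of -0.06 or -0.10, and single libraries left out gave 0 to 2 higher and 1 to 4 lower. Isg15 was at 280 to 886 CPM (median 552) against 344 to 727 CPM (median 452; 0.25, SE 0.17, adjusted p = 0.31). Irf7 (0.13) and Mx1 (-0.04) were not called. Interferon gamma targets had 4 of 19 higher and 2 lower, and 8 higher without 1x0Gy library 2, with the class II transactivator Ciita at 1.05 (SE 0.32) and Iigp1 at -0.74 (SE 0.15). The marker covariate left 0 of these higher and 1 lower, and the reads outside genes 1 and 1. In MHC class II the loading chaperones H2-DMb1 (0.79, SE 0.16) and H2-DMb2 (0.69, SE 0.12) rose, while the presenting chains H2-Aa (-0.07), H2-Ab1 (0.04) and Cd74 (-0.39) were not called, and of the 10 genes of this list 3 were higher and 0 lower, or 1 and 0 with either covariate. MHC class I presentation had 1 of 14 higher and 0 lower, no larger shares than over all genes tested.

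Dusp6, the phosphatase that dephosphorylates ERK and is induced by it, was at 91.5 to 258 CPM (median 210) against 411 to 991 CPM (median 533), wholly apart (-1.61, SE 0.16, adjusted p = 2.6e-07). Spry2, a feedback inhibitor of receptor tyrosine kinases, was at 7.57 to 26.3 CPM (median 16.0) against 36.0 to 72.2 CPM (median 40.3), also apart (-1.54, SE 0.18), and Spry1 fell by 1.45 (SE 0.38). Dusp4 rose by 1.57 (SE 0.35) and Dusp5 by 0.34, so that of 10 genes of this kind 2 rose and 3 fell, 1 higher without 3x0Gy library 4, 1x20Gy library 3 or 1x0Gy library 3. The marker covariate left 1 higher and 2 lower, and the reads outside genes 0 and 2. Egr1, an immediate early gene of the same pathway, was at 122 to 254 CPM (median 174) against 255 to 945 CPM (median 407). Its highest irradiated library lay just under its lowest mock (-1.40, SE 0.19, adjusted p = 1.1e-05). The fall was 1.86 after 3x4Gy and 0.91 after 1x20Gy on the log2 scale, with an unadjusted p of 0.008 for the difference that did not hold after adjustment. Of 16 immediate early and heat shock genes 1 rose and 4 fell, the others being Jun (-0.60) and the inducible HSP70 genes Hspa1a (-1.13, SE 0.26) and Hspa1b (-1.51, SE 0.24), near-identical copies whose reads the counting may not separate. Fos (0.15) and Junb (0.18) were not called. The list had 1 higher and 2 lower with the marker covariate and 1 and 3 with the reads outside genes.

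Of 19 hypoxia genes tested 3 rose and 6 fell, with 0 and 4 under the marker covariate and 2 and 2 under the reads outside genes. Egln3, the prolyl hydroxylase that low oxygen induces, fell from a median of 18.9 to 5.38 CPM (-1.62, SE 0.24). The mitophagy receptor Bnip3 fell by 1.33 (SE 0.23) and the pyruvate dehydrogenase kinase Pdk1 by 0.83 (SE 0.13). Hif1a, a transcription factor of the response to low oxygen, rose by 0.63 (SE 0.16), while Vegfa (-0.02) and Slc2a1 (-0.12) were not called.

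**Figure D5:**
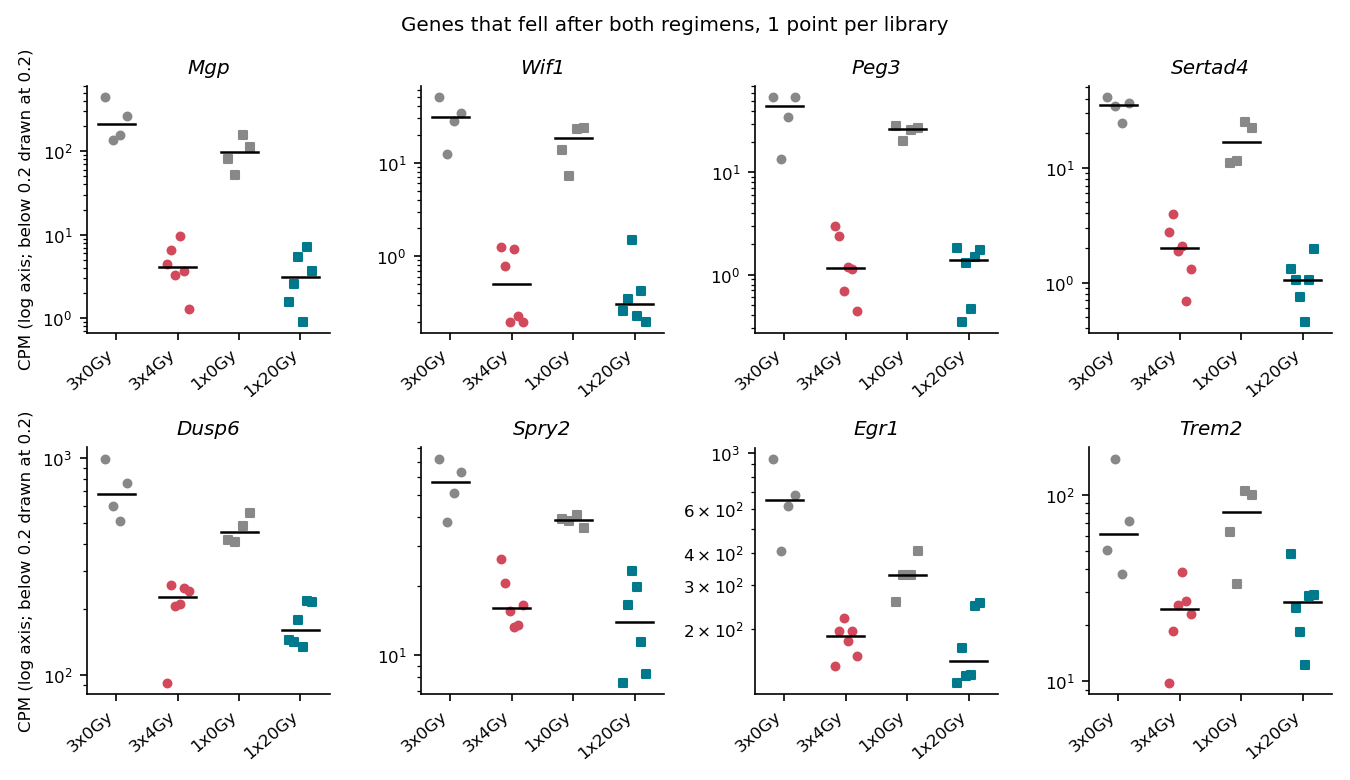
CPM (y axes, log scale, values under 0.2 drawn at 0.2) of 8 genes that fell after both regimens, by group (x axis), with 1 point per library and the group median as a line. Irradiated and mock libraries do not overlap in Mgp, Wif1, Peg3, Sertad4, Dusp6, Spry2 and Egr1 and do so in Trem2.

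Among genes with at least 5 CPM called in both schedules, Wif1 and Mgp had the deepest losses. Some scarcer genes had larger falls, among them Csn2, beta casein, at 0 to 0.316 CPM against 0.895 to 11.9 CPM (-5.58, SE 0.53). Mgp, matrix Gla protein, an inhibitor of calcification made by vascular and fibroblastic cells, was at 0.916 to 9.74 CPM (median 3.69) against 51.6 to 442 CPM (median 146), a log2 fold change of -5.26 with SE 0.33 (adjusted p = 2.6e-10). Wif1, a secreted inhibitor of Wnt ligands, was at 0 to 1.502 CPM (median 0.304) against 7.19 to 50.2 CPM (median 23.2; -5.41, SE 0.38), and the size of such a fold rests in part on the small count that edgeR adds near 0. Peg3, an imprinted zinc finger gene, was at 0.348 to 3.01 CPM against 13.6 to 54.4 CPM (-4.58, SE 0.28) and Sertad4 at 0.458 to 3.95 CPM against 10.97 to 41.1 CPM (-3.96, SE 0.24). Each of these 4 separated the groups by a wide gap. Smoc1, a matrix calcium binder (-4.37, SE 0.35), the hedgehog coreceptor Boc (-3.56, SE 0.33), Postn, periostin (-3.63, SE 0.32), the collagen Col16a1 (-3.83, SE 0.33) and Foxc1, a mesenchymal transcription factor (-3.40, SE 0.31), fell as well. So did Pdzrn3 (-3.76), the imprinted RNA H19 (-3.98) and Pigr, the epithelial receptor that exports IgA (-3.54, SE 0.23).

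Of 9 fibroblast and matrix genes tested 8 fell, with a median of -1.70, among them Col1a1 (-2.02, SE 0.37, from a median of 27.3 to 5.80 CPM) and Sparc (-2.25, SE 0.29), and Thy1 (0.37), which T cells express too, was not called. Of 16 epithelial and tumour markers 8 fell and 0 rose. Krt14, a basal keratin, fell by 2.76 (SE 0.33) and Epcam by 1.71 (SE 0.27), while Krt8 (-0.97), Krt19 (-0.02), Krt7 (-0.12) and Cdh1 (-0.25) were not called. The whole list's summed level was 173 to 861 CPM in irradiated and 477 to 1236 CPM in mock libraries, and that of the fibroblast list 66.2 to 172 against 121 to 301 CPM. Both measured haemoglobin genes fell, Hba-a2 by 1.98 (SE 0.22). Endothelial genes went the other way, 5 of 8 higher and 0 lower with Pecam1 at 0.98 (SE 0.17), and 2 higher without 3x0Gy library 3 or with either covariate.

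Adding the mean level of the fibroblast and epithelial lists to the fit left 765 calls, which include 689 of the 2747 genes, and 2705 of the 2747 kept their sign. Fold changes had a median ratio of 0.89 to those without it and standard errors of 1.48. Mgp (-4.18, SE 0.46), Wif1, Peg3 and Sertad4 kept their calls, while Col1a1 (-0.86, SE 0.50) and Epcam (-0.59, SE 0.25), members of the lists that make up the covariate, lost theirs. Adding the percentage of reads outside genes instead left 1244 calls, which include 1096 of the 2747 genes. Chac1, Inhba, F10, Foxp3, Ctla4, Cdkn1a, Rab11fip1, Mxd1, Hdc, Ptgs2, Relb, Mki67, Trem2, Dusp6, Spry2 and Egr1 kept their calls with either covariate.

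Pooling the schedules also brought up genes that neither comparison had called. They were 1097 of the 2747 (39.9%), 594 higher and 503 lower, and 181 of them changed at least 2-fold. The largest rises in this class with at least 5 CPM included Ccl24, Irg1, mmu-mir-155 and Gimap7. Irg1, which makes the antimicrobial metabolite itaconate, was at 43.9 to 249 CPM (median 74.0) against 22.1 to 57.7 CPM (median 36.4), with the groups overlapping (1.33, SE 0.30, adjusted p = 0.0026). The small GTPase Gimap7 of lymphocytes was at a median of 8.51 against 3.80 CPM (1.16, SE 0.32), and the locus mmu-mir-155 was at 8.82 against 3.45 CPM (1.27, SE 0.34). Ccl24, an eosinophil attractant, had a log2 fold change of 1.77 (SE 0.62), but its call ended in 8 of the 20 fits that left out 1 library, and its value was 1.18 without 1x20Gy library 2. The largest falls were Aqp5, a water channel of secretory epithelia (-1.93, SE 0.45), Ly6d (-1.35, SE 0.35), the actin binder Palld (-1.27, SE 0.31), Wfdc2 and Csn3, kappa casein. The calls of Wfdc2 (-1.21, SE 0.43) and Csn3 (-1.10, SE 0.35) ended in 13 and 2 of those fits, Csn3 without 3x0Gy library 1 or 1x0Gy library 3. None of the rises and falls named in this class kept its call with the marker covariate. There Irg1 had 0.28 (adjusted p = 0.70) and Ly6d -0.12 (adjusted p = 0.89). With the share of reads outside genes Ccl24, Irg1 and Palld kept their calls and the others named lost theirs.

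Where the regimens came closest to differing among genes with at least 5 CPM, values ran as follows. Lipe, hormone-sensitive lipase, had log2 fold changes of 0.87 after 3x4Gy and -0.06 after 1x20Gy, and Zfp667, a zinc finger gene, of 1.196 and 0.14. Ighg2c, an immunoglobulin heavy chain, had -4.001 and 0.44, Zbtb18 0.74 and -0.30 and Tbc1d10a 0.27 and -0.58. These 5 had the smallest p-values for the difference among genes with at least 5 CPM and no symbol of clone, Gm or Rik type. Each had an adjusted p of 0.74 in edgeR's test. Among the 2745 common genes with the same sign in both schedules the change was larger after 1x20Gy in 1158 (42.2%).

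At day 13 the libraries were of 1x20Gy (7) and its mock (4), none shared with day 5, and 891 of 11071 genes were called (8.05%; 467 higher, 4.22%, and 424 lower, 3.83%). Of the 2747 common genes 2446 were tested there, and 78% kept their sign against 63.7% of all genes tested on both days. Of the 1228 that fell at day 5, 257 were called lower again and 2 were called higher, and of the 1218 that rose 155 were called higher again and 8 lower. Wif1 (-4.19), Mgp (-3.46) and Sertad4 (-3.63) were still low, as were Egr1 (-1.01), Dusp6 (-0.85) and Trem2 (-1.24), and Hdc (1.73), Mxd1 (0.69) and Ctla4 (1.06) were still high. Several of the leading rises of day 5 were not called, such as F10 (-0.04), Slc7a11 (-0.06), Cdkn1a (0.17) and Inhba (0.39), and neither was Mki67 (-0.40). Spry2 was higher at day 13 (0.99, adjusted p = 0.018). Days were not tested against each other here.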

How the data were processed

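Per the labels, CD45.2+ cells were sorted from tumours and only RNA with an integrity number above 8.5 was sequenced. Per the submitters' processing notes, bcl2fastq 2.20.0.422, cutadapt 1.5, HISAT2 2.0.4 and HTSeq 0.9.1 were used with GRCm38 (mm10). The strand setting is not given in the sources used here. The authors deposited whole-number gene counts per library for 38406 symbols, with counting summary lines for reads outside genes, which were left out of tests and library sizes.

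Genes were filtered with filterByExpr (at least 10 counts, 15 in total) and scaled by TMM. They were tested with edgeR 4.0.16 (R 4.3.3) quasi-likelihood fits over the 20 libraries, with schedule as a covariate and Benjamini-Hochberg adjustment over all genes tested, and the standard error is the log2 fold change over the root of F. The fits were tested on simulated data. The labels do not say what the replicate numbers stand for, and the main fits did not pair libraries by them. Of 26 same-numbered pairs 14 correlated above 0.1 and 10 below 0, which does not settle whether the numbers pair libraries. DESeq2 1.42.0, limma 3.58.1 voom, other scalings, no filter, a threshold of 0.01, the replicate number as a block, covariates and leave-one-out were alternatives. CPM are counts scaled to a common library total, after TMM.

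The members and lists were chosen with earlier results of these data known. Named genes were the 12 per direction with the largest common change called in both schedules, the 5 smallest p-values, the 5 largest called in neither schedule, the 5 smallest p-values for the difference and the 5 widest gaps per direction (at least 5 CPM), up to 4 called members of each list and a fixed set. Symbols of clone, Gm or Rik type were not ranked. Other list members were named after their values were seen. Some genes sit in several lists and are counted in each. Intervals between libraries cover the spread of libraries only, and total counts set the precision of scarce genes. Some genes that met these rules are not reported here.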

Additional observations from a re-analysis of the deposited data

Results flagged for a closer look

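In groups of 4 or 6 libraries the highest or lowest value of a named gene was set against the nearest of the others, and 10 of 192 such tests stood out, where chance gives about 1 in 20. In 3x4Gy, library 1 was high in Neb (log2 CPM 5.743, next 4.316), which encodes nebulin, and in Mki67 (8.495, next 7.655). Library 6 of that group was low in Smoc1 (-0.7022, next 0.5188) and high in Arg1 (6.055, next 3.613), and library 3 was low in Pigr (0.5188, next 1.239). In 3x0Gy, library 3 was low in Olr1 (0.8209, next 2.081).

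In 1x20Gy, library 2 was high in F7 (4.988, next 3.344), Ifng (5.042, next 3.828) and Arg1 (6.018, next 2.45). In 1x0Gy, library 1 had the highest total of gene counts (7541000, next 5850000).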

How the results depend on the processing

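Counts of called genes moved by over 1.5 times in few settings. At an adjusted p below 0.01 the common response had 1466 genes, 3x4Gy 665, 1x20Gy 425 and day 13 290. The common response had 765 genes with the fibroblast and epithelial level as a covariate and 1244 with the reads outside genes. The 3x4Gy comparison had 702 genes in the 10 libraries of its own schedule. Library size alone gave 1533 genes at day 13. The difference of the regimens had 1 gene without a filter and 1 with DESeq2. Causes were not tested. With the replicate number as a block the common response had 2342 genes, and Cd8a, not called, had 0.091. Whether the numbers pair libraries is not known, and 7 of 20 libraries correlated best with their own number, given with no chance expectation.

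With 1 library left out the common response ranged from 2261 to 2821 genes, 3x4Gy from 1132 to 1815, 1x20Gy from 556 (without 1x0Gy library 4) to 1300 (without 3x0Gy library 2), the difference from 0 to 1 and day 13 from 306 (without 1x0Gy library 3) to 1264. Epithelial markers ranged from -0.96 to -0.67 and endothelial markers from 0.26 to 0.46. Ddit3 ranged from -0.10 to 0.043 and Gzmb from -0.038 to 0.19, neither called. Within schedules, total gene counts differed by 514500 in the 3-fraction schedule and by -1203000 in the 1-fraction schedule. In the 1-fraction schedule fibroblast markers differed by -1.18 (exact permutation, adjusted p = 0.095) and epithelial markers by -1.19 (adjusted p = 0.033).

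Signs turned with the marker covariate, with no call, for Aqp5 (0.054), Arg1 (-0.19), Csn3 (0.22), Ddit3 (0.017), Gzmb (-0.13), Isg15 (-0.27), Mmp12 (-0.10) and Wfdc2 (0.58), and with reads outside genes for Cxcl10 (0.043) and Ddit3 (0.25). Of the 181 named genes called, 97 lost the call with the marker covariate, 73 with the reads outside genes and 22 with the block. Scaling moved the sign of small list medians to below 0 for NK cells (-0.10), chemokine ligands (-0.003) and coagulation (-0.02) with library size alone. Depth limits genes of few counts, such as Wif1 after irradiation.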
